A study of Mus musculus with 15 samples.

Results

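The 48 genes described here run the cell division cycle or restrain it, and they were taken from a fixed list of cyclins and their kinases, replication, mitosis and E2F genes and p53 pathway genes among the 21755 protein-coding genes annotated on chromosomes 1 to 19 and X. The list holds 8 G1 cyclins and kinases, 4 S phase and mitotic cyclins and their kinase, 9 replication licensing genes, 3 genes of nucleotide supply, 10 mitosis genes, 8 E2F and pocket protein genes, 4 inhibitors of cyclin-dependent kinases (CDK inhibitors) and the p53 gene Trp53 with its antagonist Mdm2. Membership used gene names and no measured value, but the list was chosen with earlier results of these data known.

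A cell that receives growth signals makes D-type cyclins, whose kinases phosphorylate the retinoblastoma family of pocket proteins and free the E2F transcription factors. E2F factors then switch on the genes of DNA replication, and a later wave of genes, many bound by the MuvB complex at a promoter element called the CHR, carries the cell through mitosis. Most hepatocytes of an adult liver rest outside this cycle, and p53, through the CDK inhibitor p21 (the product of Cdkn1a), is a main brake on re-entry. H3K4me3, trimethylation of lysine 4 of histone H3, marks the promoters of active genes and of many genes that are poised.

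PAT-ChIP-seq for H3K4me3, in which chromatin is immunoprecipitated from formalin-fixed tissue in paraffin, was applied to the livers of 15 female C57BL/6 mice (the substrain C57BL/6J by the study's methods), with 1 library per mouse and 3 mice on each of 5 diets. The standard diet (SD), the high-fat diet (HF), the diet with yellow corn (YD) and the diet with purple, anthocyanin-rich corn (RD) were eaten freely, while the CR group received a limited daily ration of standard chow. In YD and RD the maize of the standard diet was replaced by near-isogenic corn lines that differ in anthocyanins. No group carried a transgene or a targeted allele. The diets began at 3 months of age and lasted 10 months by the study's design, while the labels give an age of 12 months for every mouse. A gene was called marked in a library when a peak lay within 1 kb of any of its transcription start sites (TSSs). The principal TSS is the most upstream TSS of the transcripts with the best APPRIS principal label in the annotation. That label does not measure promoter use.

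The lists held 7825 to 33752 peaks, and the reads behind them, recovered in 14 libraries from the steps of the peak scores, ranged from 5589269 to 13978169. Of 15 hepatocyte markers, 9 to 15 were marked in each library. Of 10 immune cell markers, 5 were marked in the library HF_1 and 0 or 1 in each of the others. Of 12 endothelial, stellate and biliary markers, 7 were marked in HF_1, 5 in HF_3 and 0 to 3 elsewhere. The share of all coding genes marked differed widely, from 17.5% in YD_3 to 54.6% in HF_1. In whole liver, fewer cells carrying a mark and less of the mark per cell cannot be told apart.

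The promoters that the results turn on are shown first, as the 200 bases upstream of the RefSeq start, read 5′ to 3′ on the gene's strand (GRCm38.p6, the mm10 assembly). Ccnb2 and Cdc20, which encode cyclin B2 and an activator of the anaphase-promoting complex, had no peak in any library. Cdk1, the mitotic kinase, and Mki67, the proliferation antigen Ki-67, had a peak in 2 libraries each, and Mcm6, a subunit of the replicative helicase, in 5. Cdkn1b (the CDK inhibitor p27), Cdk6 and Trp53 were marked in all 15, Cdk6 at a start (position 3341485) upstream of the window shown. Capitals mark the CHR word (TTTGAA or TTCGAA), 4 E2F words (TTTCCCGC, TTTGGCGC, TTTCGCGC and TTTGCCGC) and the CCAAT box, each searched on both strands, and overlapping E2F words appear as 1 run. The windows are Ccnb2 at chr9:70421555-70421754, Cdc20 at chr4:118437344-118437543, Cdk1 at chr10:69352913-69353112, Mki67 at chr7:135716380-135716579, Mcm6 at chr1:128359706-128359905, all on the minus strand, and Cdkn1b at chr6:134920201-134920400, Cdk6 at chr5:3343693-3343892 and Trp53 at chr11:69580159-69580358, on the plus strand.
Ccnb2: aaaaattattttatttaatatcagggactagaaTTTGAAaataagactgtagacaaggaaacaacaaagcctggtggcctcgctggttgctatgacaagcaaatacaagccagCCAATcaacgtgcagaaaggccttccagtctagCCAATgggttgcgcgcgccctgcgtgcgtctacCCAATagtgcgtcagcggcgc
Cdc20: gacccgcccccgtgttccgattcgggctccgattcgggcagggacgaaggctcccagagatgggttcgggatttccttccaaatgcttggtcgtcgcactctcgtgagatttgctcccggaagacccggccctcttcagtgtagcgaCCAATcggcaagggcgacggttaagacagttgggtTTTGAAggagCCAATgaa
Cdk1: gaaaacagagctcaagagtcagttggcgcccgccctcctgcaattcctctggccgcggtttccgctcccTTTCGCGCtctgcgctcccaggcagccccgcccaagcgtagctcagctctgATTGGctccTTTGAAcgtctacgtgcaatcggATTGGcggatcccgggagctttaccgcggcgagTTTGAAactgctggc
Mki67: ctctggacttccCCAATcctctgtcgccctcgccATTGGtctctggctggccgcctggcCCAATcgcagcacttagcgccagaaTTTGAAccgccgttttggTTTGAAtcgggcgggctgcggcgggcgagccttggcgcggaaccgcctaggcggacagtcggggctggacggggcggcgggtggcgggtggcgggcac
Mcm6: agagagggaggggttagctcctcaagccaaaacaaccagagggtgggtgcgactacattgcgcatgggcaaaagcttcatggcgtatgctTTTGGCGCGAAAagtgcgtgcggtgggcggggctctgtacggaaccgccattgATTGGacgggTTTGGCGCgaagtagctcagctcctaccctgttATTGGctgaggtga
Cdkn1b: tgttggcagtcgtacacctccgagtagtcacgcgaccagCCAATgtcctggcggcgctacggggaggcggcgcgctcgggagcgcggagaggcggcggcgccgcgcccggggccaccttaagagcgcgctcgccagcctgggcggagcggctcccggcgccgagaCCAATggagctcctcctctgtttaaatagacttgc
Cdk6: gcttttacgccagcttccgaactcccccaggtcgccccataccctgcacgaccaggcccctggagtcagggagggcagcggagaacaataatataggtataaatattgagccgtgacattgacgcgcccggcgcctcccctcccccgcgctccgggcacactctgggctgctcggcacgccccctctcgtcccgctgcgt
Trp53: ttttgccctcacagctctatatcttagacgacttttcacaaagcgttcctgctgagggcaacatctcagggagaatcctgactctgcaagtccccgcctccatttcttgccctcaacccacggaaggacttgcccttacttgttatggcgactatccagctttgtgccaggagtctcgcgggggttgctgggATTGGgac

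The promoters of Ccnb2 and Cdc20 hold a CHR and CCAAT boxes, as do those of Cdk1 and Mki67, and the Mcm6 window holds 3 E2F words. The Cdkn1b and Trp53 windows hold CCAAT boxes only, and the Cdk6 window none of the searched words. The Cdk6 window adjoins a group of starts marked in 14 libraries. The Cdk6 start marked in all 15 has no promoter in the table used and was not searched. Cdc6, the third gene without a peak, is not shown, and its promoter held 1 E2F word, no CHR word and no CCAAT box. Of the 48 genes, 40 have a RefSeq promoter in the table used (250 bases before to 50 after the start). In those windows a CHR word was found for 15 of 40 genes (37.5%) against 19.4% of 16433 coding genes, an E2F word for 13 (32.5%) against 3.33%, and a CCAAT box for 29 (72.5%) against 42.2%. By role, 7 of 8 mitosis genes had a CHR word and none an E2F word, while 6 of 8 licensing genes had an E2F word and 2 a CHR word. Among the 7 always-marked genes in the table, 1 had a CHR word and none an E2F word. Of the 20 genes marked in 0 to 7 libraries, 9 had a CHR word (45.0%) and 8 an E2F word (40.0%). The shares were close to these, at 38.5% for each word, among the 13 genes marked in 8 to 14 libraries. The observed to expected CpG ratio had a median of 0.879 for the members and 0.589 for coding genes. It was 0.727 for the always-marked members, 0.875 for those marked in 8 to 14 libraries and 0.937 for those marked in 0 to 7. By their median, the seldom marked promoters were thus not poor in CpG, though single genes among them ran from 0.452 to 1.08. A word match is a description of the letters in this window and not a measured binding site.

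**Figure D1:**
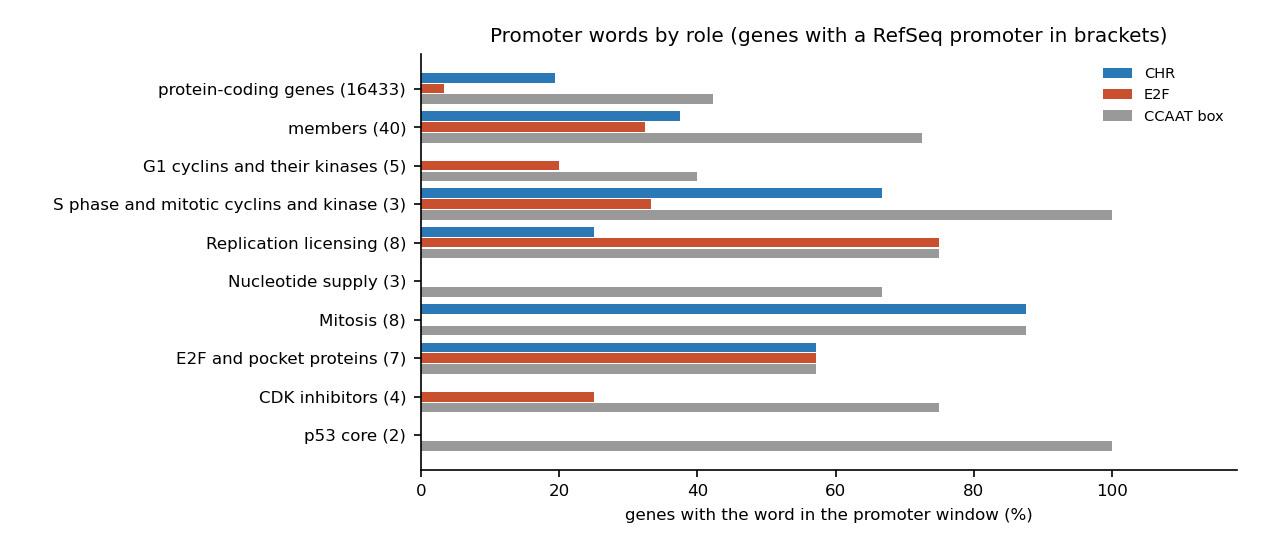
Share of genes (x axis, %) whose promoter window holds a CHR word, an E2F word or a CCAAT box, for all coding genes, all members and each role, with the number of genes in brackets. CHR words were found for 87.5% of the mitosis genes and E2F words for 75.0% of the licensing genes.

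Of the 48 genes, 9 were marked in all 15 libraries (18.8%), 36 in some (75.0%) and 3 in none (6.25%). Among all coding genes the shares were 9.46%, 50.5% and 40.0%. The median member was marked in 7.5 libraries and the median coding gene in 3. The always-marked genes were Ccnd1, Ccnd3, Cdk6, Rb1, Rbl2, Cdkn1b, Cdkn2c, Trp53 and Mdm2, which belong to G1, the pocket proteins, the CDK inhibitors and the p53 core. No always-marked gene came from replication licensing, nucleotide supply, mitosis or the S phase and mitotic cyclins. This held with YD_3, the list with the smallest share of coding genes marked. Without YD_3, 11 members were marked in all libraries, as Mcm7 (licensing) and Aurka (mitosis) lacked a peak there alone. With the principal TSS only, 6 were marked in all 15, and Ccnd3, Cdk6 and Rb1 were not among them. The genes without any peak were Ccnb2, Cdc20 and Cdc6, which loads the replicative helicase. Without HF_1 this number was 5, as Ccnb1 and E2f1 had their only peak there. With the same number of coding promoters taken from every list (the 3811 with the highest scores, the number marked in YD_3), 24 members had no peak, 18 had some and 6 were marked in all 15.

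**Figure D2:**
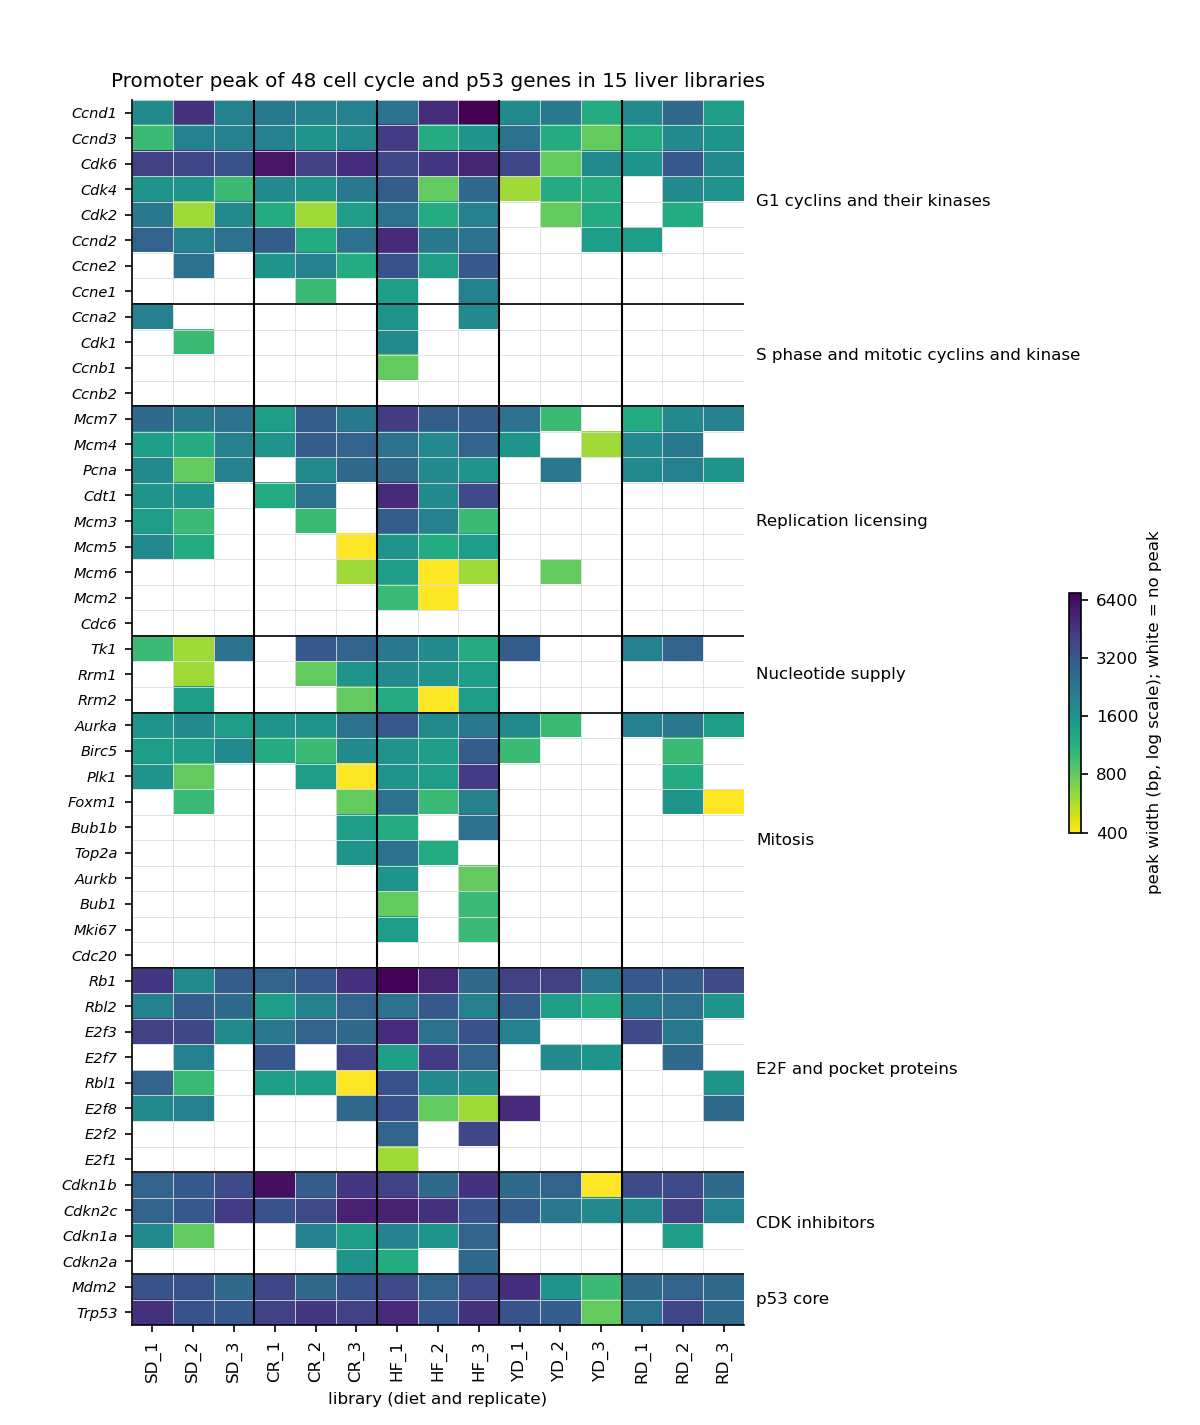
Promoter peak of each of the 48 genes (rows, by role) in each of the 15 libraries (columns, by diet), coloured by peak width in bp on a log scale, with white for no peak. The rows of the S phase and mitotic cyclins and Cdk1 are nearly empty, with peaks only in SD_1, SD_2, HF_1 and HF_3. The G1, CDK inhibitor and p53 core rows hold most of the always-marked genes.

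The G1 genes were marked in a median of 13 libraries. Ccnd1, which encodes cyclin D1, had peaks of 1800, 4600 and 2000 bp in the SD libraries, 2200, 2000 and 2000 bp in CR, 2400, 4800 and 7000 bp in HF, 1800, 2200 and 1200 bp in YD, and 1800, 2600 and 1400 bp in RD. The widest were in HF_3, HF_2 and SD_2. The library median over all marked coding genes was 2600, 1800 and 2400 bp in HF, 2000 bp in each CR library and 2400, 1400 and 1200 bp in YD. In raw width, all HF peaks of Ccnd1 were wider than every CR and YD peak, while SD and RD overlapped with each other diet. Ccnd3 (cyclin D3) had narrower peaks, of 1000, 2000 and 2000 bp in SD, 2000, 1600 and 1800 bp in CR, 4200, 1200 and 1600 bp in HF, 2400, 1200 and 800 bp in YD, and 1200, 1800 and 1600 bp in RD. Its 2 groups of start sites differed, since the upstream group with the principal TSS was marked in 5 libraries and an internal group, downstream, in all 15.

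Cdk6, the kinase partner of D-type cyclins, had peaks of 4000, 3800 and 3400 bp in SD, 6000, 4000 and 4800 bp in CR and 3800, 4400 and 5200 bp in HF. They were 3800, 800 and 1800 bp in YD and 1600, 3200 and 1800 bp in RD. All RD peaks and 2 of the 3 YD peaks were narrower than every SD, CR and HF peak. These are raw widths. The library median over all marked coding genes also had lower means in RD (1600 bp) and YD (1667 bp). It was 1867 bp in SD, 2000 bp in CR and 2267 bp in HF. Cdk4, its paralogue, was marked in every library but RD_1, with widths of 600 to 3000 bp. Ccnd2 (cyclin D2) was marked in all 9 SD, CR and HF libraries, at 1200 to 5000 bp, and among the corn diets only in YD_3 and RD_1, at 1400 bp each. Cdk2, the partner of the E cyclins, lacked a peak in YD_1, RD_1 and RD_3, and in all 12 libraries its peak also lay near the TSS of Pmel.

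The E cyclins, which act at entry into S phase, were marked less often than the D cyclins. Ccne2 had peaks of 2400 bp in SD_2, of 1600, 2000 and 1200 bp in CR and of 3400, 1400 and 3200 bp in HF, and none in YD or RD. Ccne1 was marked in CR_2 (1000 bp), HF_1 (1400 bp) and HF_3 (2000 bp) only. For both genes HF_1 or HF_3 held the widest peak.

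The S phase and mitotic cyclins and Cdk1 were the least marked role, with a median of 1.5 libraries. Ccna2 (cyclin A2) had peaks of 2000 bp in SD_1, 1600 bp in HF_1 and 1800 bp in HF_3. Cdk1 had peaks of 1000 bp in SD_2 and 1800 bp in HF_1. Ccnb1 (cyclin B1) had 1 peak, of 800 bp, in HF_1, and Ccnb2 none. No CR, YD or RD library had a peak at any of the 4 genes. Their scores were low within their lists: the percentile of the score among all peaks of the library, where 100 is the highest score, was 17.7 to 45.1 for Ccna2, 10.7 and 41.7 for Cdk1 and 22.6 for Ccnb1.

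Replication licensing loads the Mcm2 to Mcm7 helicase on origins. Mcm7 and Mcm4 were marked in 14 and 13 libraries, and in each of these the peak also lay near the start of a neighbouring coding gene, Ap4m1 and Prkdc. Mcm7 lacked a peak in YD_3, and Mcm4 in YD_2 and RD_3. Pcna, the sliding clamp of the replication fork, lacked a peak in CR_1, YD_1 and YD_3 and had widths of 800 to 2600 bp elsewhere. The other licensing genes have no coding neighbour within 1 kb and were marked in 7 libraries at most. Cdt1, a loading factor, had peaks of 1600 and 1600 bp in SD_1 and SD_2, 1200 and 2400 bp in CR_1 and CR_2, and 5000, 1800 and 3600 bp in HF.

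Mcm3 had peaks of 1400 and 1000 bp in SD_1 and SD_2, 1000 bp in CR_2, and 3000, 2000 and 1000 bp in HF. Mcm5 had peaks of 1800 and 1200 bp in SD_1 and SD_2, 400 bp in CR_3, and 1600, 1200 and 1400 bp in HF. Cdt1, Mcm3 and Mcm5 had no peak in SD_3 or in any YD or RD library. Mcm6 had no SD peak, and had peaks of 600 bp in CR_3, of 1400, 400 and 600 bp in HF and of 800 bp in YD_2. Mcm2 was marked in HF_1 (1000 bp) and HF_2 (400 bp) alone. With TSSs taken within 3 kb, Mcm2 was marked in 12 libraries, so a peak lay between 1 and 3 kb from its start sites in 10 further libraries, and E2f8 in 13 instead of 8.

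The 3 genes of nucleotide supply were also marked most often in HF. Rrm1 and Rrm2, the subunits of ribonucleotide reductase, were marked in all 3 HF libraries and in no YD or RD library. Rrm1 peaks were 600 bp in SD_2, 800 and 1600 bp in CR_2 and CR_3, and 1800, 1600 and 1400 bp in HF. Rrm2 peaks were 1400 bp in SD_2, 800 bp in CR_3, and 1200, 400 and 1400 bp in HF. Tk1 (thymidine kinase) was marked in 11 libraries, all but CR_1, YD_2, YD_3 and RD_3, and each of its peaks also lay near the start of Afmid.

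The 10 mitosis genes were marked in a median of 3 libraries. Aurka, a spindle kinase, was marked in every library but YD_3, at 1000 to 3200 bp, with a peak that also lay near Cstf1 and reached a median of 1494 bp upstream but 305 bp downstream of the principal TSS. Birc5 (survivin) was marked in all 9 SD, CR and HF libraries and in YD_1 and RD_2, but its TSS lay inside the peak in only 4 of 11 libraries and the peak lay mostly upstream. Foxm1, a transcription factor of the mitotic wave, was marked in SD_2, CR_3, RD_2, RD_3 and all HF libraries, always with a peak that also lay near Rhno1. Plk1 (polo-like kinase) had peaks of 1600 and 800 bp in SD_1 and SD_2, 1400 and 400 bp in CR_2 and CR_3, 1600, 1400 and 4200 bp in HF and 1200 bp in RD_2.

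Apart from Cdc20, the remaining mitosis genes were marked in 2 or 3 libraries each, at least 2 of them HF. Mki67 had peaks of 1400 bp in HF_1 and 1000 bp in HF_3, and none in the other 13 libraries. Top2a (topoisomerase IIα) had peaks of 1600 bp in CR_3, 2400 bp in HF_1 and 1200 bp in HF_2. Aurkb, the kinase of the chromosomal passenger complex, had peaks of 1600 bp in HF_1 and 800 bp in HF_3, and Bub1, a kinase of the spindle checkpoint, of 800 and 1000 bp in these libraries. Bub1b had peaks of 1400 bp in CR_3, 1200 bp in HF_1 and 2400 bp in HF_3. None of these 5 genes was marked in an SD, YD or RD library.

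Among the E2F genes, which encode activators (E2f1 to E2f3) and repressors (E2f7 and E2f8), E2f3 was marked in 12 libraries, all but YD_2, YD_3 and RD_3, at 1800 to 4800 bp. E2f2 was marked only in HF_1 (2800 bp) and HF_3 (3800 bp), and E2f1 only in HF_1 (600 bp), where no TSS lay inside the peak. E2f8 was marked in SD_1, SD_2, CR_3, all HF libraries, YD_1 and RD_3, and its widest peak, 5000 bp, was in YD_1. E2f7 was marked in 9 libraries through internal start sites: its principal TSS had a peak in HF_1 alone, and internal TSSs without a coding transcript in 6 and 5 libraries.

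Rb1, the retinoblastoma gene, was marked in all 15 libraries, at 1800 to 6800 bp, but this peak lay at an internal TSS that is also near the start of Lpar6. The upstream group of start sites with the principal TSS was marked in 2 SD, 2 CR, 3 HF and 1 RD library and in no YD library. Of its relatives, Rbl2 (p130) was marked in all 15 libraries at 1200 to 3200 bp, with 2000, 3000 and 2600 bp in SD, 1400, 2000 and 2800 bp in CR, 2400, 3200 and 2000 bp in HF, 3000, 1400 and 1200 bp in YD, and 2200, 2400 and 1600 bp in RD. Rbl1 (p107) was marked in 9 libraries, SD_1, SD_2, all CR, all HF and RD_3. p130 is the pocket protein that predominates in resting cells, and p107 is itself an E2F target.

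Of the CDK inhibitors, Cdkn1b had peaks of 2800, 3200 and 3600 bp in SD, 6200, 3000 and 4400 bp in CR, 4000, 2600 and 4600 bp in HF, 2600, 2800 and 400 bp in YD, and 3600, 3600 and 2600 bp in RD. Cdkn2c (p18) had peaks of 2800, 3200 and 4200 bp in SD, 3400, 3600 and 5400 bp in CR, 5400, 4600 and 3400 bp in HF, 3000, 2200 and 1800 bp in YD, and 1800, 4000 and 2000 bp in RD. The narrowest Cdkn1b peak, in YD_3, stood far below the rest. Cdkn1a, the p53 target that encodes p21, was marked in 8 libraries, with 1800 and 800 bp in SD_1 and SD_2, 2000 and 1400 bp in CR_2 and CR_3, 2000, 1600 and 2800 bp in HF, 1400 bp in RD_2 and none in YD. All 8 peaks lay at a downstream group of TSSs, chr17:29093769-29093781, and none within 1 kb of the principal TSS at position 29090979. The downstream group holds 2 coding transcripts and the principal group 1. Their promoter windows had CpG ratios of 0.786 and 0.0892.

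Cdkn2a encodes p16Ink4a and p19Arf from separate promoters, and it is known for its induction in senescent cells. Its peaks, of 1600 bp in CR_3, 1200 bp in HF_1 and 2600 bp in HF_3, all lay at the upstream TSS used by p19Arf (position 89294653 of chromosome 4). The downstream TSS used by p16Ink4a (position 89282192) had none in any of the 15 libraries.

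The p53 core was marked throughout. Trp53 had peaks of 4600, 3400 and 3200 bp in SD, 4000, 4400 and 4000 bp in CR, 5000, 3200 and 4600 bp in HF, 3400, 3000 and 800 bp in YD, and 2400, 3800 and 2600 bp in RD. Mdm2, which encodes the ubiquitin ligase that removes p53 and is itself a p53 target, had peaks of 3400, 3400 and 2600 bp in SD, 3800, 2600 and 3400 bp in CR, 3600, 2800 and 3600 bp in HF, 4800, 1600 and 1000 bp in YD, and 2600, 2800 and 2600 bp in RD. YD_3 held the narrowest peak of both genes. The Trp53 peak also lay near the start of Wrap53, its divergent neighbour, in all 15 libraries. The score percentile of Trp53 had a median of 97.3 and that of Mdm2 91.4.

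Sharing a promoter region with another coding gene went with a higher median number of marked libraries. A coding neighbour with a TSS within 1 kb was annotated for 7 members, which were marked in a median of 13 libraries, against 6 for the other 41. The same medians over all coding genes were 13 for 3190 genes with such a neighbour and 1 for 18565 without. Marking in all 15 libraries held for 14.3% of the 7 members and 19.5% of the 41. Over all coding genes it held for 26.3% with a neighbour and 6.57% without. Of the 19 members marked in at least 11 libraries, 7 shared the peak with another coding TSS (Cdk2, Mcm4, Mcm7, Tk1, Aurka, Rb1 and Trp53), against 1 of the 29 marked in at most 10 (Foxm1). For the 7 frequently marked genes, the share of the mark that belongs to either gene cannot be told apart.

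Counted over diets, 26.0 ± 6.56 of the 48 genes were marked in SD (mean ± standard deviation, n = 3), 27.0 ± 6.0 in CR and 39.7 ± 5.51 in HF. On corn the means were 15.7 ± 1.53 (YD) and 18.0 ± 3.46 (RD). By library the counts were 45, 34 and 40 in HF, 27, 32 and 19 in SD, 21, 27 and 33 in CR, 16, 22 and 16 in RD, and 17, 16 and 14 in YD. Each HF library exceeded every library of the other diets, the nearest being CR_3. Each YD library lay below every SD and CR library, and RD overlapped with SD, CR and YD. The share of all coding genes marked had the same order of diet means, with means of 51.2 ± 3.53% in HF, 43.4 ± 6.92% in CR, 39.6 ± 5.98% in SD, 31.2 ± 3.46% in RD and 22.8 ± 4.69% in YD. With the same 3811 highest-scoring coding promoters per list, 12.0 ± 3.0 members were marked in HF, 9.33 ± 1.53 in CR, 12.0 ± 2.0 in SD, 10.7 ± 2.52 in RD and 12.7 ± 1.15 in YD. HF then overlapped with each other diet, and CR, with 8 to 11 members, lay below YD, with 12 to 14.

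**Figure D3:**
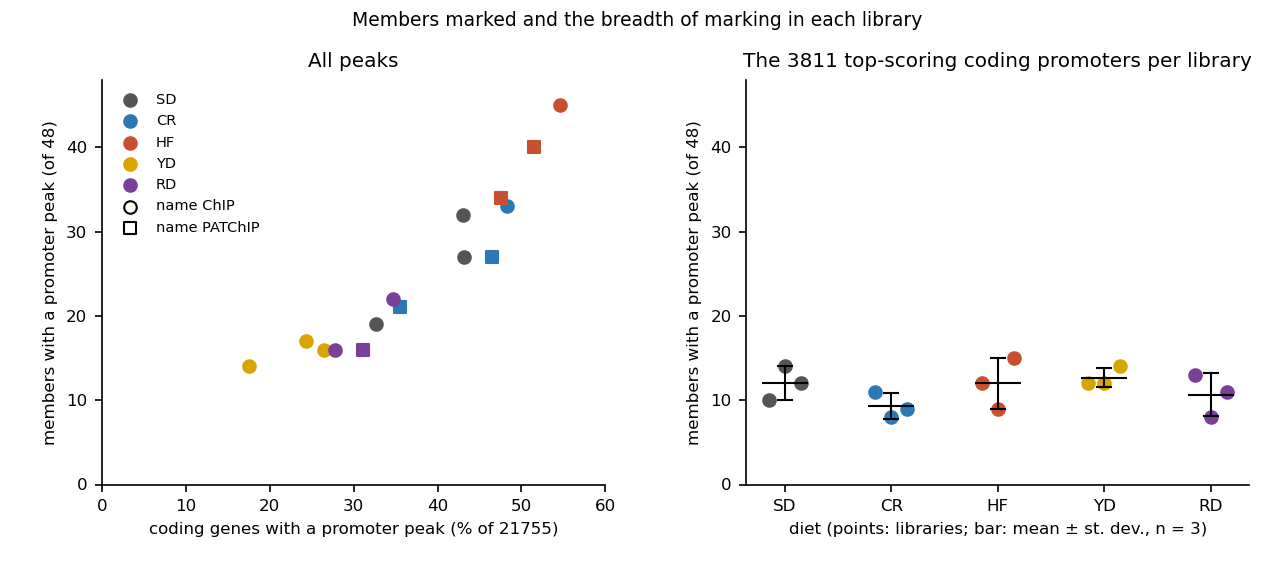
Left, members marked (y axis, of 48) against the share of all coding genes marked (x axis, %) in each library, with squares for library names of the PATChIP form and circles for the ChIP form. Right, members among the 3811 highest-scoring coding promoters of each library by diet, with points for libraries and bars for the mean ± standard deviation (n = 3). The 34 to 45 members of the HF libraries on the left fall to 9 to 15 on the right, within the 8 to 14 of the other diets but for HF_3.

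By role, 7.33 ± 2.08 of 10 mitosis genes were marked in HF, against 3.0 ± 1.0 in SD and 1.0 ± 1.0 in YD. Of the 9 replication licensing genes, 7.67 ± 0.577 were marked in HF, 5.0 ± 1.73 in SD and 2.0 ± 1.0 in YD. The G1 genes ranged from 7.67 ± 0.577 of 8 in HF to 4.33 ± 0.577 in RD. The p53 core was marked in every library.

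Each diet was compared with SD by presence, calling a gene gained where at least 2 of 3 libraries of the diet and no SD library had a peak, and lost in the reverse case. The 4 comparisons share the SD libraries. With 3 libraries against 3, the smallest two-sided p of Fisher's exact test is 0.1, so these counts carry no p. In HF, 10 members were gained: Ccne1, Mcm2, Mcm6, Aurkb, Bub1, Bub1b, Top2a, Mki67, E2f2 and Cdkn2a. Of 15 members without an SD peak these are 66.7%, against 9.15% of the 11160 coding genes without one. The 2 sets are unlike, since 8711 of the 11160 coding genes but 3 of the 15 members had no peak in any library. Of the members gained, 5 had no peak outside HF. Mcm6 alone was marked in all 3 HF libraries.

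The 21 HF peaks behind these gains were 400 to 3800 bp wide, with a median of 1200 bp, and their median score percentile was 31.0, so they ranked in the lower part of their lists. The gains rested on HF_1 and HF_3: 1 remained without HF_1 (Mcm6), 3 without HF_3 and 8 without HF_2. In these counts the rule stayed at 2 libraries, so every HF library left had to have a peak. Without SD_1, 11 gains were counted, and 15 without SD_2. With the same number of coding promoters no member was gained. With the 7825 highest-scoring peaks per list none of these 10 was gained, and 4 others were (Cdk2, Plk1, Foxm1 and Cdkn1a). HF_1 and HF_3 are also the libraries with the most endothelial, stellate and biliary markers (7 and 5 of 12), HF_1 had 5 of 10 immune markers, and both have the largest shares of coding genes marked. The part of these in the HF gains was not tested. No member was lost in HF, against 0.179% of 8920 coding genes marked in at least 2 SD libraries.

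In YD, 6 of the 26 members marked in at least 2 SD libraries were lost, namely Cdt1, Mcm3, Mcm5, Plk1, Rbl1 and Cdkn1a. This is 23.1%, equal to the 23.1% of 8920 coding genes lost in YD. In RD, Cdt1, Mcm3 and Mcm5 were lost, 11.5% of 26 members against 9.55% of coding genes. The SD peaks of these 6 genes all came from SD_1 and SD_2, 12 peaks with a median width of 1500 bp. No member was lost in YD or RD without SD_1 or without SD_2. The rule then asked for a peak in every SD library left, which these 6 genes, without a peak in SD_3, could not meet. The losses in YD were 10 without YD_1, and those in RD 7 without RD_2 and 5 without RD_3. Without SD_2, E2f7 was gained in YD and Foxm1 in RD. With all libraries, no member was gained in YD (0.0717% of 11160 coding genes) or RD (0.43%).

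In CR no member was gained, against 3.49% of coding genes without an SD peak, and none was lost, against 0.818%. Without SD_2, 3 members were gained (Ccne2, Rrm1 and E2f7), while Mcm3 was lost without CR_2 and Mcm5 and E2f8 without CR_3. The mean number marked in CR differed from that in SD by less than the standard deviation between mice of either group.

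Presence was also tested across more libraries with two-sided Fisher's exact tests, adjusted by the Benjamini-Hochberg method over 10985 coding genes marked in 1 to 14 libraries. For the 6 corn libraries against the 9 others, 50 coding genes (0.455%) passed an adjusted p of 0.05, all of them marked less often in the corn diets, and none of the 36 members tested did. At an unadjusted p of 0.05, 27.0% of coding genes passed, and 13 members, all of them marked less often on corn. The lowest values were those of Cdt1 and Ccne2, marked in 0 of 6 corn and 7 of 9 other libraries (Fisher's exact test, p = 0.006993, adjusted p = 0.08915), followed by Ccnd2 and Birc5, in 2 of 6 and 9 of 9, and Rbl1, in 1 of 6 and 8 of 9 (exact p = 0.01099 and adjusted p = 0.08915 for all 3). Without SD_3 148 genes passed and without CR_1 112, the same 50 among them in both cases, while 0 passed when any other library was left out. No member passed in any of these.

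For the 3 HF libraries against the 12 others, no coding gene (0.0%) and no member passed, with 0.0022 as the smallest possible p of this design. At an unadjusted p of 0.05, 10.6% of coding genes passed, and 10 members, whose share is not set against it, since a gene seldom marked entered the test through the libraries in which it had a peak. Rrm2 and Mcm6 were marked in 3 of 3 HF and 2 of 12 other libraries (Fisher's exact test, p = 0.02198, adjusted p = 0.388). Mki67, Aurkb, Bub1, E2f2 and Mcm2, marked in 2 of 3 HF and none of the 12 others, entered through their HF peaks alone. The library names carry the form PATChIP in 5 libraries (CR_1, CR_2, HF_2, HF_3 and RD_1) and ChIP in the other 10. Within the ChIP form the members marked were 19 to 32 in SD, 33 in the CR library, 45 in the HF library, 14 to 17 in YD and 16 and 22 in RD, and within the PATChIP form 21 and 27 in CR, 34 and 40 in HF and 16 in RD.

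Width and score rank were compared between diets over the 2059 coding genes marked in all 15 libraries, which include 9 members, with limma on log2 width centred on each library's median and on normal scores of the rank of the peak score. Across the 2059 genes, 1 (0.0486%) passed the F test over diets by width and 9 (0.437%) by rank at an adjusted p of 0.05, and no member passed either. In single contrasts with SD, 2 genes passed by width in YD (0.0971%) and 1 in RD (0.0486%), and by rank 3 in RD (0.146%), 2 in YD (0.0971%) and 1 in HF (0.0486%), with no member among them. At an unadjusted p of 0.05, 151 and 166 of the genes passed, and of the members 0 and 1. The median width of the 9 members was 3200 bp, against 2400 bp for the 2059 genes, and their median score percentile 91.8 against 88.8.

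The member nearest the threshold by rank was Cdk6 (limma F test, unadjusted p = 0.02806, adjusted p = 0.5123), with differences from SD of 0.34 ± 0.63 in CR (estimate ± standard error, in units of the normal score), -0.18 ± 0.63 in HF, -1.19 ± 0.63 in RD and -1.61 ± 0.63 in YD. With the logit of the percentile in the whole list in place of the normal score, 68 of the 2059 genes passed and Cdk6 was among them (limma, adjusted p = 0.03429). For Ccnd1 the rank differed from SD by -1.82 ± 0.73 in CR and -1.62 ± 0.73 in RD (limma, adjusted p = 0.9154 and 0.8116). The centred width of Ccnd1 differed from SD by 0.44 ± 0.43 in HF and -0.44 ± 0.43 in CR (limma, adjusted p = 0.9981 and 0.998). By width, the YD peak of Rb1 differed from SD by 0.75 ± 0.36 on the log2 scale (limma, adjusted p = 0.5728) and the Cdkn1b peak in RD from that in YD by 0.93 ± 0.44 (adjusted p = 0.5545), the latter with the 400 bp peak of YD_3 among its values. Trp53 differed from SD by -0.31 ± 0.31 in YD and Mdm2 by -0.09 ± 0.31 (limma, adjusted p = 0.8222 and 0.9539). The centred width of Cdk6 differed from SD by -0.52 ± 0.37 in both RD and YD (limma, adjusted p = 0.869 and 0.7459).

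**Figure D4:**
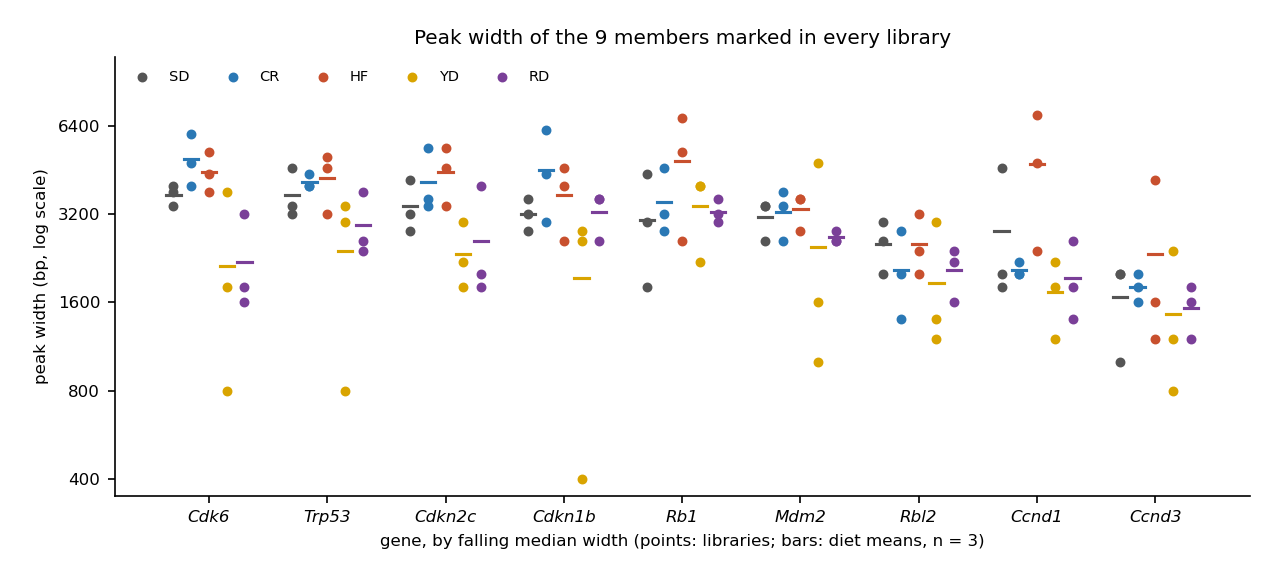
Peak width (y axis, bp, log scale) of the 9 genes marked in every library, ordered by median width, with points for libraries and short bars for diet means (n = 3). Cdk6 peaks were 1600 to 3200 bp wide in RD and 3400 to 6000 bp in SD, CR and HF, and no other gene had a diet in which all peaks were narrower than every peak of SD, CR and HF.

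Relative to the principal TSS, 44 members had a peak there in at least 1 library, and for 28 of them the median peak reached further downstream than upstream. The medians over these genes were 676.5 bp upstream and 946 bp downstream. The median Ccnd1 peak had an upstream reach of -69 bp and reached 2068 bp into the gene. It thus began downstream of the principal TSS by less than 1 peak-calling window of 200 bp. The principal TSS lay inside the peak in 4 of 15 libraries, but some annotated Ccnd1 TSS did in 14. Cdkn1b peaks reached a median of 800 bp upstream and 2599 bp downstream, and Cdkn2c peaks 211 and 2988 bp. Trp53 peaks were nearly symmetric, at 1758 and 2041 bp. Cdk6 was the reverse case, with 2692 bp upstream and 907 bp downstream, and a further annotated TSS lay upstream of its principal one.

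**Figure D5:**
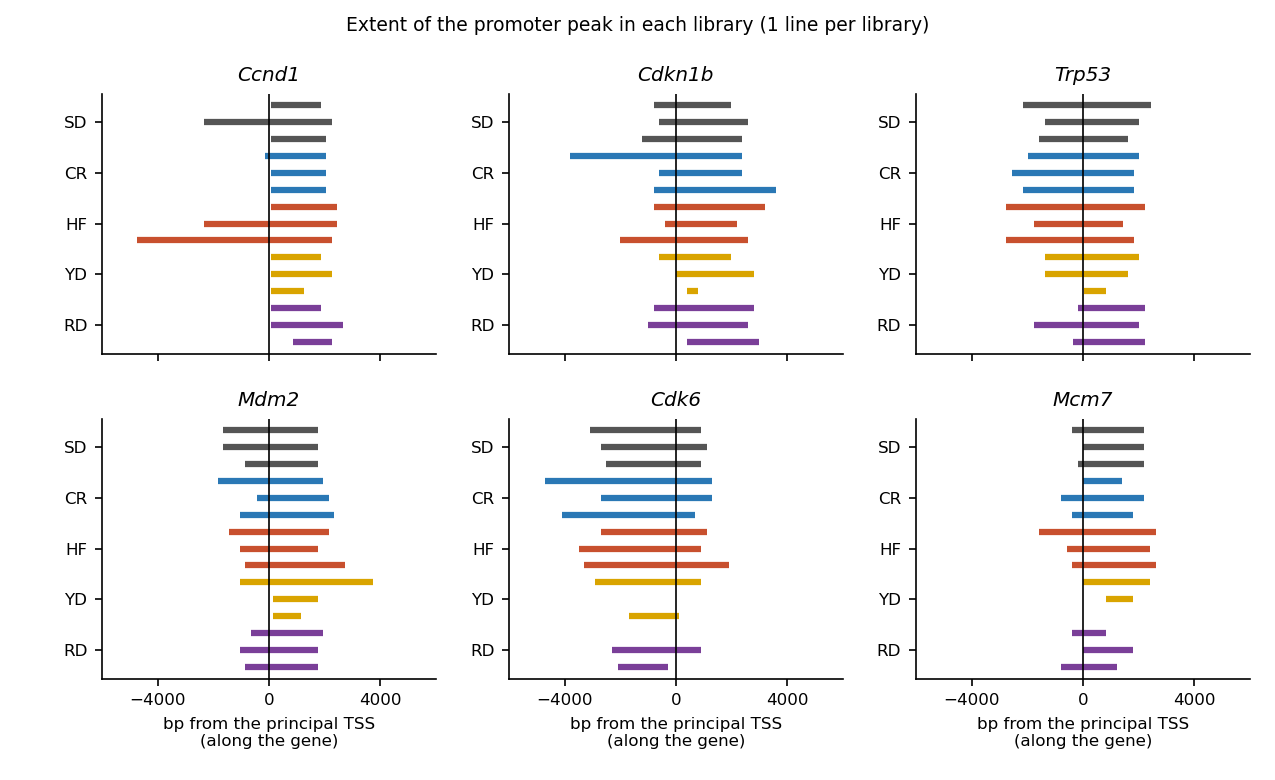
Extent of the promoter peak of 6 genes in each library, as distance in bp from the principal TSS along the gene (x axis), with 1 line per library grouped and coloured by diet and no line where no peak lay within 1 kb of that TSS. Ccnd1, Cdkn1b and Mcm7 peaks lie mostly downstream of the TSS, Cdk6 peaks mostly upstream, and Trp53 peaks on both sides.

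Further genes of the same pathways were counted from lists written by hand. Of 35 other p53 pathway genes, which include kinases of the DNA damage response and p53 targets, 6 were marked in all 15 libraries, 26 in some and 3 in none, with a median of 12 libraries. Of 85 other cell cycle genes, 9 were marked in all, 71 in some and 5 in none, with a median of 9. No gene of either list passed the Fisher tests of the corn diets or of HF at an adjusted p of 0.05. In HF, 3 of 6 p53 pathway genes and 11 of 20 cell cycle genes without an SD peak were gained, against 9.15% of coding genes. That coding share counts 8711 genes without a peak in any library, while the lists hold 3 and 5 such genes. In YD, 6 of 28 (21.4%) and 19 of 52 (36.5%) were lost, against 23.1%, and in RD 0 of 28 and 5 of 52 (9.62%), against 9.55%. The p53 pathway list was marked to 90.5 ± 1.65% in HF and 41.0 ± 14.4% in YD, and the cell cycle list to 83.5 ± 12.3% and 27.1 ± 9.34%, against 51.2% and 22.8% of all coding genes.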

How the data were processed

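Each deposited list gives the position and score of the peaks of 1 library, with no pooling. Per the study's methods, the authors aligned reads to mm10 with bwa, removed unmapped, low-quality and duplicate reads with samtools, and called peaks with SICER2 in windows of 200 bp joined over gaps of 400 bp (versions not given in the sources used here). The score the authors deposited is not scaled between libraries. It was used here to rank peaks within a list and, for single-window peaks, to recover read numbers.

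Peaks were assigned to genes with GENCODE M21 (139486 transcripts, 21755 protein-coding genes) at 1 kb from any TSS, taking the highest-scoring peak. Diets and replicate numbers came from the labels. The members, the lists and the groups of the Fisher tests were chosen with earlier results of these data known. All members were counted, and those marked in 1 to 14 libraries, the widest and narrowest of those marked in 15, those gained, lost or past a test, and 8 genes (Ccnd1, Cdk1, Mki67, Top2a, Cdkn1a, Cdkn2a, Trp53 and Mdm2) were described by library. Presence was compared by counts and Fisher's exact tests, and width and rank with limma 3.58.1 in R 4.3.3, all fitted over coding genes with Benjamini-Hochberg adjustment. Python 3.11.15, scipy 1.17.1 and pandas 2.3.3 were used. The assignment of peaks to genes, the Fisher test of presence and the limma fit were tested on simulated data, and the other steps were not. Read numbers were recovered from scores of single-window peaks with an effective genome fraction of 0.74. They fell within 0.00042 of a whole number in 14 libraries, and YD_1 gave no such solution. No read count per peak was used, so errors are between mice. The alternatives were other TSS distances and TSS sets, equal numbers of peaks or coding promoters, a minimum width, stricter presence, other scalings, the name form, the replicate number as a block and the omission of each library. Reads were not used here.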

Additional observations from a re-analysis of the deposited data

How the results depend on the processing

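The alternatives with equal numbers of coding promoters, with the principal TSS only and within the ChIP-named libraries were added after seeing the data. With the same number of coding promoters, 18 members were marked in some libraries and 24 in none, 0 coding genes passed the corn test, and the members gained or lost against SD were 3 in YD, 1 in CR, 0 in HF and 0 in RD. With the same number of peaks (7825), 17 members were marked in none, 0 genes passed the corn test, 4 members changed in HF and 1 each in CR, YD and RD, none of them gained or lost in that diet in the full lists, and the diet test called 0 genes by width and 3 by rank. With the TSS inside the peak, 5 members were marked in all libraries, 0 genes passed the corn test, 2 members changed in CR, and width and rank called 0 genes each. Peaks of at least 600 bp gave 1 member in CR, as did the principal TSS only. With 3 of 3 against 0 of 3 libraries, 1 member changed in HF, 0 in YD and 0 in RD. The ChIP-named libraries alone gave 0 genes in the corn test, where 5 libraries against 5 allow an exact p of 0.00794 at the lowest. Width called 0 genes without centring, with summed widths and within 3 kb, where rank called 2. Rank called 68 genes and 1 member (Cdk6) with the logit percentile. No member passed the tests of presence or width under any alternative. The replicate numbers did not pair the libraries: deviations from the diet means correlated at 0.00347 on average by width and 0.00369 by rank between same-numbered libraries of different diets. With the replicate block, rank called 0 genes in place of 9 and width 1, with no member.

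Leaving out each library in turn gave 9 to 11 members marked in all libraries, 34 to 36 in some and 3 to 5 in none. The members changed against SD were 1 to 15 in HF, 0 to 10 in YD, 0 to 7 in RD and 0 to 3 in CR. The rule of at least 2 libraries was kept, so it was stricter for a diet with a library left out. The corn test called 0 to 148 genes, the HF test 0, width 1 to 3 and rank 0 to 9, with 0 members in each. Rank called 0 genes without SD_1, HF_3, RD_1 or RD_3. A missing peak is a mark that was not detected in that library. Among the 14 libraries with recovered read numbers, CR_1 had the fewest (5589269) with 21 members marked and RD_2 the most (13978169) with 22, and the part of depth in presence was not tested.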
